A study of Mus musculus with 2 samples.

Results

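Neurexins and neuroligins, 5 of the 32285 genes in the tables, were followed across the cell classes of the mouse dorsal telencephalon at embryonic day 14.5. The genes were taken by name, by a rule that uses no measured value, with earlier results of these data known. They were the neurexins Nrxn2 (ENSMUSG00000033768) and Nrxn3 (ENSMUSG00000066392), and the neuroligins Nlgn1 (ENSMUSG00000063887), Nlgn2 (ENSMUSG00000051790) and Nlgn3 (ENSMUSG00000031302). Other members of both families were not analysed here. All 5 genes passed the filter on low counts.

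Neurexins are single-pass membrane proteins best known from the presynaptic side of synapses, where they act as ligands, and neuroligins are their classical postsynaptic receptors. Binding across the cleft recruits scaffold proteins on both sides, and the form of neurexin and neuroligin present is known to bias a contact toward excitatory or inhibitory function. In the embryonic cortex most synapses have yet to form, and the same genes are already transcribed by migrating interneurons, newborn neurons and progenitors.

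The cells came from embryos of genotype WT, with EomesDot in their titles, whereas the study's methods name C57BL/6J embryos, with sex not considered, for its signalling predictions, and how the names relate is not stated. There were 2 libraries, called replicate 2 and replicate 4 after their titles, both of the single group WT, so that comparisons were made between cell classes and not between groups of animals. Whether the libraries came from separate embryos is not stated, and p-values measure the spread between these libraries. The dissected tissue held cells of several regions, and the study predicted ligand-receptor contacts from somatostatin (Sst) interneurons to radial glial cells and intermediate progenitors with such data.

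The libraries held 40267872 and 49422007 UMIs (molecular tags that each mark one captured transcript) in 1712 and 2589 barcodes, of which 3153 were retained as cells with medians of 30810 and 22948 UMIs. Of the barcodes, 3 occurred in both files, and 1 of these was among the retained cells. Classes were named as "like" a type from marker genes, and the 5 genes took no part in the clustering. In replicates 2 and 4, respectively, there were 596 and 951 excitatory neuron-like cells, 254 and 437 cells like radial glial cells (RGCs, the primary cortical progenitors), 110 and 156 cells like intermediate progenitors (IPCs), and 54 and 84 cells like interneurons of the medial ganglionic eminence (MGE), the source of Sst interneurons. Further classes were GABAergic neuron-like cells of no sub-class (22 and 66), Cajal-Retzius-like (16 and 24), hem or choroid plexus-like (33 and 20) and meningeal-like cells (19 and 34). Interneurons like those of the caudal ganglionic eminence (CGE; 6 and 32) and striatal projection neuron-like cells (1 and 65) had too few cells in replicate 2 for a test and are given as values. MGE interneuron-like cells had a lower median share of ribosomal protein UMIs (4.22% and 1.49%) than IPC-like (13.1% and 11.3%), excitatory neuron-like (8.31% and 7.2%) and RGC-like cells (13% and 12.1%), and a lower median depth (23450 and 11006 UMIs) than excitatory neuron-like cells (34038 and 24900 UMIs). The part of these differences in the results was not tested.

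The genes lie on 5 chromosomes and differ widely in genomic span (RefSeq annotation of GRCm38.p6, the build of the deposited mm10 tables). Nrxn3 covers 1612 kb at chr12:88722701-90334935 and Nlgn1 covers 911 kb at chr3:25421808-26332866. Nrxn2 spans 114 kb at chr19:6418756-6533217, Nlgn3 spans 22.2 kb at chrX:101299179-101321350 and Nlgn2 spans 14.7 kb at chr11:69823123-69837784. Priming was at the 3′ end, so the counts do not separate the long alpha from the short beta neurexins, which share their 3′ exons, nor the splice forms that set the choice of partner. Levels are therefore given per gene and compared between classes, never between genes.

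Nrxn3 was highest in the GABAergic classes. Its level, as UMIs of the gene per 1000000 UMIs of the class (CPM), was 20112 in replicate 2 and 22224 in replicate 4 in MGE interneuron-like cells (21168 ± 1493, SD, n = 2), and every one of the 54 and 84 cells held at least 1 Nrxn3 UMI. The median cell held 436 and 253 Nrxn3 UMIs. The GABAergic cells without a sub-class were made up differently in the libraries, with 8 dividing cells and 14 of sub-cluster 3 (led by Egfem1 and Etv1) in replicate 2, and 41 dividing cells, 4 of sub-cluster 3 and 21 of sub-cluster 7 (led by Sst and Sgcz) in replicate 4. Their level was 19090.1 and 13627 CPM, which did not differ from that of MGE interneuron-like cells beyond the spread (log2 difference 0.56, SE 0.61, adjusted p = 0.604, edgeR quasi-likelihood test). CGE interneuron-like cells held 29317 CPM (6 cells) and 35678 CPM (32 cells), and striatal projection neuron-like cells 12294 CPM (1 cell) and 12239.7 CPM (65 cells). Nrxn3 was thus at over 10000 CPM in every GABAergic class of both libraries, although at Leiden resolution 0.5, where the cells were clustered anew, the mean of GABAergic cells without a sub-class was 8531 CPM. The dividing GABAergic sub-cluster, led by Top2a and Mki67, was already there, with 14802 CPM in 8 cells of replicate 2 and 13323 CPM in 41 cells of replicate 4.

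Outside the GABAergic classes, Nrxn3 was lower by 1 to 3 orders of magnitude. Its UMIs lay unevenly, with 36.7% or more of those of each tested class in its 5 highest cells. A UMI was held by 68.8% and 41.7% of Cajal-Retzius-like and 29.1% and 34.0% of IPC-like cells. Cajal-Retzius-like cells, early-born Reln-expressing neurons of the marginal zone, held 1224 and 999 CPM, below the GABAergic cells without a sub-class (log2 difference 3.88, SE 0.69, adjusted p = 0.0016) and above the meningeal-like cells (2.92, SE 0.68, adjusted p = 0.00472). The median Cajal-Retzius-like cell, though, held 2 and 0 UMIs, and the 5 highest cells held 95.5% and 95.2% of the class's Nrxn3 UMIs. The 5 highest cells similarly held 54.0% and 62.8% of the Nrxn3 UMIs of excitatory neuron-like cells (33.9 and 66.6 CPM), whose mean of 50.3 CPM was 18.8 CPM with at most 5% mitochondrial UMIs, 22.3 CPM at Leiden resolution 2 and 23 CPM with at least 500 genes per cell. Of the 8 tested classes, RGC-like cells differed most between the libraries, at 30 CPM in replicate 2 and 201 CPM in replicate 4, where 1 cell carried 726 UMIs and 5 of 437 cells carried 83.5% of all. The mean of both libraries therefore rested on replicate 4, and it fell from 115 CPM to 41.2 CPM with at least 500 genes per cell and 37.6 CPM with at most 5% mitochondrial UMIs. IPC-like cells had close values, at 107 and 118 CPM (112 ± 7.78, SD, n = 2), with 57.2% and 36.7% of the UMIs in the 5 highest cells. Meningeal-like cells had 94.3 and 185 CPM, with 70 of 75 and 151 of 166 UMIs in a single cell each, hem or choroid plexus-like cells had 10.8 and 20.5 CPM, endothelial-like cells had 7 UMIs in each library (23.8 and 17.9 CPM), and mural-like cells had none in 3 and 9 cells, which allows up to 36.2 and 9.4 CPM (3 counts, counting error only). None of the orders from meningeal-like down to hem or choroid plexus-like cells passed the test between neighbours (adjusted p from 0.0628 to 0.989). Between classes farther apart in this order, hem or choroid plexus-like cells were called lower than meningeal-like (log2 −3.15, SE 0.8, adjusted p = 0.00892), IPC-like (−2.84, SE 0.79, adjusted p = 0.00918) and RGC-like cells (−2.81, SE 0.78, adjusted p = 0.011). The meningeal-like level, a mean of 139 CPM, depended on the cells kept, with 8.63 CPM at no more than 5% mitochondrial UMIs, below the 16.6 CPM of hem or choroid plexus-like cells there, and 512 and 619 CPM with at least 500 genes per cell and with doublets kept.

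**Figure D1:**
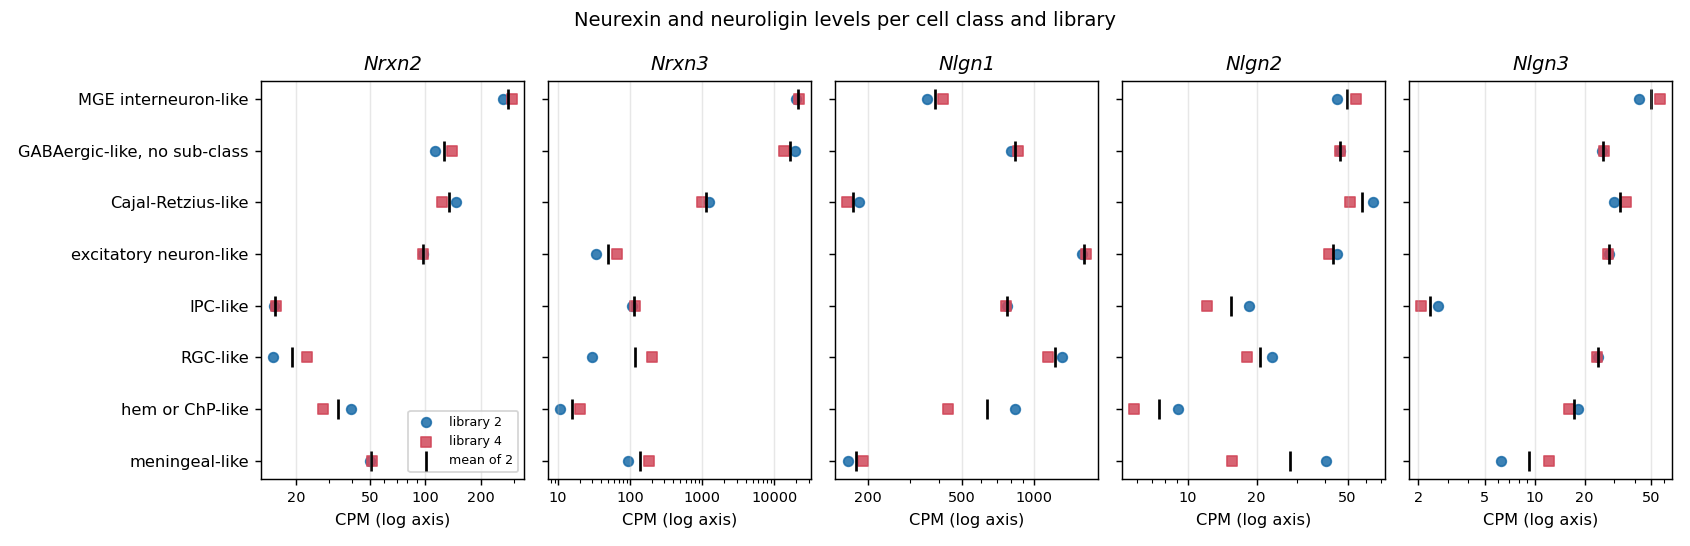
Levels of the 5 genes (CPM, log axis, own scale per panel) in the 8 tested classes, with 1 circle (replicate 2, labelled library 2) and 1 square (replicate 4, labelled library 4) per class and a bar at their mean; ChP, choroid plexus. Nrxn3 lies at 13627 CPM or higher in both GABAergic classes and at 1224 CPM or lower elsewhere, whereas Nlgn1 is highest in excitatory neuron-like and RGC-like cells.

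Nrxn3 UMIs in cells of the excitatory lineage were set beside 8 genes of GABAergic neurons, each as a percentage of its level in MGE interneuron-like cells of the same library. The part of RNA released into the suspension and of uncalled doublets in these UMIs was not tested. In excitatory neuron-like cells Nrxn3 was at 0.169% and 0.3%, where the others ran from 0% (Lhx6) to 0.169% (Gad2) in replicate 2 and from 0.104% (Erbb4) to 0.529% (Gad2) in replicate 4, so that it lay at the top of their range in the first and within it in the second. RGC-like cells had 0.149% and 0.903% Nrxn3, inside the range of the 8 genes, which reached 0.587% (Dlx5) and 2.7% (Dlx1). In IPC-like cells of replicate 2, Nrxn3 stood at 0.53%, whereas Gad1, Dlx1, Dlx2, Dlx6os1 and Lhx6 had 0 UMIs, Gad2 had 1 UMI (0.0353%) and Erbb4, also very abundant in MGE interneuron-like cells, was at 0.0838%. Only Dlx5 was higher there, at 0.861% from 3 UMIs. In replicate 4 the IPC-like value was 0.529%, with Erbb4 at 0.0845% and the others between 0.308% (Lhx6) and 3.01% (Dlx1). Nrxn3 and Erbb4 thus each kept their percentage in IPC-like cells of both libraries, with Nrxn3 above Erbb4 in both, while most of the remaining genes had 0 or 1 UMI in replicate 2 and higher percentages in replicate 4.

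**Figure D2:**
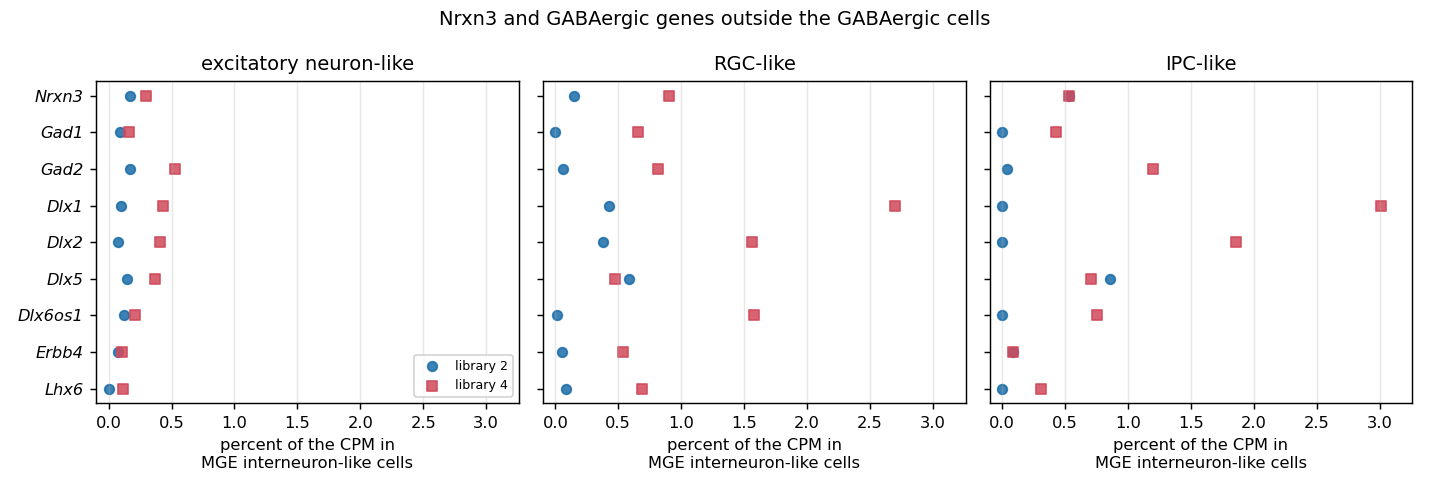
Level of Nrxn3 and of 8 genes of GABAergic neurons in 3 classes of the excitatory lineage, as a percentage of the level in MGE interneuron-like cells of the same library (circles, replicate 2; squares, replicate 4). In IPC-like cells the Nrxn3 values, 0.53% and 0.529%, coincide, and in replicate 2 all genes but Nrxn3 and Dlx5 lie below 0.1%.

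The share of cells with a Nrxn3 UMI was highest in IPC-like cells of the 3 classes. It was 29.1% (exact 95% interval 20.8 to 38.5%) and 34.0% (26.6 to 42.0%) in IPC-like cells, 18.1% and 20.8% in RGC-like cells and 10.9% and 10.1% in excitatory neuron-like cells, against 1.75% and 2.99% of barcodes led by hemoglobin genes, red blood cells that should lack the gene, at median depths of only 865 and 6712 UMIs. After thinning each cell to 5000 UMIs, which no hemoglobin-led barcode entered, the shares were 15.5% and 22.7% in IPC-like, 7.92% and 9.0% in RGC-like and 4.41% and 5.51% in excitatory neuron-like cells. Intervals cover counting error only.

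Nrxn2 was the more evenly shared neurexin. Of the 8 tested classes, MGE interneuron-like cells had the highest level, with 264 and 296 CPM (280 ± 22.6, SD, n = 2), and CGE interneuron-like cells had 262 and 239 CPM. Next stood Cajal-Retzius-like cells (147 and 123 CPM), GABAergic cells without a sub-class (113 and 139 CPM) and excitatory neuron-like cells (97.6 and 97.1 CPM). Neighbours among these 3 did not differ beyond the spread (adjusted p = 0.908 and 0.66), whereas MGE interneuron-like cells were above Cajal-Retzius-like cells (log2 difference 1.25, SE 0.21, adjusted p = 0.00105). The GABAergic cells without a sub-class were a mix, with 63.4 and 84 CPM of Nrxn2 in the dividing sub-cluster, 152 and 265 CPM in sub-cluster 3 (14 and 4 cells) and 259 CPM in sub-cluster 7, the last near the MGE interneuron-like values. Meningeal-like cells held 50.3 and 51.2 CPM, below excitatory neuron-like cells (adjusted p = 0.000774), and hem or choroid plexus-like cells 39.7 and 27.8 CPM, above RGC-like cells (adjusted p = 0.0035). The progenitors were lowest of the 8 classes, with 15 and 22.9 CPM in RGC-like and 15.1 and 15.6 CPM in IPC-like cells, which did not differ beyond the spread (adjusted p = 0.475). In both libraries the 4 neuronal classes among these lay above the other 4. Of the untested classes, striatal projection neuron-like cells had 145 CPM in replicate 4 (0 UMIs in the 1 cell of replicate 2) and endothelial-like cells 13.6 and 5.12 CPM, from 4 and 2 UMIs. Thinned to 5000 UMIs, 67.9% and 72.4% of MGE interneuron-like cells kept a Nrxn2 UMI, against 5.45% and 6% of IPC-like, 35.8% and 36.1% of excitatory neuron-like and 5% and 8.27% of RGC-like cells. Unthinned, the shares were 96.3% and 88.1% in the interneurons, 32.7% and 27.6% in IPC-like, 84.6% and 75.5% in excitatory neuron-like and 32.3% and 36.6% in RGC-like cells. Hemoglobin-led barcodes had 0% and 1.49%.

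Of the receptors, Nlgn1 had another order. Nlgn1, the neuroligin classically found at excitatory synapses, was highest, of the 8 tested classes, in excitatory neuron-like cells (1595 and 1669.7 CPM; 1632 ± 52.8, SD, n = 2) and next in RGC-like cells (1312 and 1147 CPM), a difference that passed the test by little (log2 0.64, SE 0.25, adjusted p = 0.0456). GABAergic cells without a sub-class (802 and 859.6 CPM), IPC-like cells (774 and 764 CPM) and hem or choroid plexus-like cells (838 and 437 CPM) came next, and neighbours among them did not differ beyond the spread (adjusted p = 0.977 and 0.577). Nor was the difference between RGC-like cells and GABAergic cells without a sub-class called (log2 0.57, SE 0.25, adjusted p = 0.107). In the latter the 5 highest cells held 85.6% and 59.0% of the Nlgn1 UMIs. The level there was 206 and 135 CPM in the dividing sub-cluster, 1266 CPM (14 cells) and 5859 CPM (4 cells) in sub-cluster 3 and 1969 CPM in sub-cluster 7, with 21 cells, all of replicate 4. MGE interneuron-like cells were lower, with 355 and 416 CPM, below the hem or choroid plexus-like cells (log2 difference 0.7, SE 0.25, adjusted p = 0.0327). In replicate 4, though, these levels were close (416 and 437 CPM). The 5 highest hem or choroid plexus-like cells held 78.3% and 74.6% of the Nlgn1 UMIs of their class. Meningeal-like (166 and 192 CPM) and Cajal-Retzius-like cells (184 and 164 CPM) were the lowest of the 8. The untested endothelial-like cells had 81.7 and 2.56 CPM and mural-like cells 0 and 116 CPM. Cajal-Retzius-like cells were called below MGE interneuron-like cells (log2 −1.33, SE 0.27, adjusted p = 0.00364). The MGE interneuron-like cells were also above the meningeal-like cells (log2 difference 1.23, SE 0.26, adjusted p = 0.0017). This order turned with the cells kept, since the mean of meningeal-like cells was 840.4 CPM with at least 500 genes per cell and 1018 CPM with doublets kept, against 399 and 407 CPM in MGE interneuron-like cells. With doublets kept the mean of hem or choroid plexus-like cells was 1354 CPM, above the 1157 CPM of RGC-like cells. CGE interneuron-like cells had 677 CPM in 6 cells and 2828 CPM in 32 cells, of which 31 held a Nlgn1 UMI, and striatal projection neuron-like cells 478 CPM in 65 cells of replicate 4, near the 416 CPM of MGE interneuron-like cells there. These values were not tested. In MGE interneuron-like cells 57.4% and 56.0% of cells held a Nlgn1 UMI and the 5 highest cells held 55.7% and 46.5% of the UMIs, compared with 90.8% and 85.7% of cells and 7.93% and 4.85% of UMIs in excitatory neuron-like cells.

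Nlgn2, the neuroligin classically found at inhibitory synapses, had similar levels in the 4 tested neuronal classes. Cajal-Retzius-like cells had 64.8 and 51.0 CPM, MGE interneuron-like cells 45.0 and 54.5 CPM, GABAergic cells without a sub-class 46.2 and 46.5 CPM, and excitatory neuron-like cells 45.1 and 41.3 CPM. Neighbours among these 4 did not differ beyond their spread (adjusted p from 0.603 to 1). CGE interneuron-like cells had 109 and 38.4 CPM, from 10 and 14 UMIs, and striatal projection neuron-like cells 49.4 CPM in replicate 4 and 0 UMIs in the 1 cell of replicate 2. Within the GABAergic cells without a sub-class, the dividing sub-cluster held 21.1 and 40.7 CPM, sub-cluster 3 65.8 and 66.3 CPM and sub-cluster 7 58.2 CPM. RGC-like cells held 23.3 and 18.1 CPM, IPC-like cells 18.6 and 12.2 CPM and hem or choroid plexus-like cells 9.11 and 5.85 CPM, and in each library the values of the 4 neuronal classes lay above those of the progenitors. Meningeal-like cells, at 40.2 and 15.6 CPM, were below excitatory neuron-like cells (log2 difference 0.82, SE 0.32, adjusted p = 0.0471), but their libraries differed by more than those of the other 7 classes.

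Nlgn3, a neuroligin of both synapse kinds, had its lowest level of the 8 tested classes in IPC-like cells. It was there at 2.61 and 2.08 CPM, from 9 and 8 UMIs in 110 and 156 cells. The mean of 2.35 CPM rose to 7.98 CPM with at least 500 genes per cell and to 7.87 and 4.77 CPM at Leiden resolutions 0.5 and 2, where the class held other cells, and was still the lowest of the 8 classes. RGC-like cells, which give rise to them, had 24.2 and 23.8 CPM, and excitatory neuron-like cells, their progeny, had 28.2 and 27.8 CPM. Highest of the 8 were the MGE interneuron-like cells, with 42.6 and 57.2 CPM (49.9 ± 10.3, SD, n = 2), above the Cajal-Retzius-like cells at 29.9 and 35.4 CPM (log2 difference 0.76, SE 0.25, adjusted p = 0.0478). The untested CGE interneuron-like cells had 21.8 and 54.9 CPM, from 2 and 20 UMIs, and striatal projection neuron-like cells 31.6 CPM in replicate 4. GABAergic cells without a sub-class (25.4 and 26.3 CPM) and hem or choroid plexus-like cells (18.2 and 16.1 CPM) lay near RGC-like cells. The former value mixed 0 and 11.5 CPM in the dividing sub-cluster with 45.2 and 66.3 CPM in sub-cluster 3 (11 and 3 UMIs) and 58.2 CPM in sub-cluster 7, which lay within or above the MGE interneuron-like values. Even the meningeal-like cells, at 6.28 and 12.2 CPM, exceeded IPC-like cells (log2 difference 1.99, SE 0.41, adjusted p = 0.00146). Only 7.27% and 5.13% of IPC-like cells held a Nlgn3 UMI, against 51.2% and 42.1% of excitatory neuron-like cells, 40.2% and 41% of RGC-like cells and 1.75% and 0% of hemoglobin-led barcodes. Thinned, the shares were 0.909% and 0.667% in IPC-like cells against 11.9% and 11.8% in excitatory neuron-like and 10.4% and 12.2% in RGC-like cells.

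Class pairs were then tested in 1 fit over the library and class sums (12872 genes, 16 sums; edgeR quasi-likelihood test, Benjamini-Hochberg adjusted p under 0.05). Between MGE interneuron-like and excitatory neuron-like cells 19.1% of all genes passed, 7.34% higher and 11.8% lower in the interneurons, and of the 5 genes 3 were higher and 1 lower. Nrxn3 was 409-fold higher (log2 8.68, SE 0.86, adjusted p = 1.6e-05; log2 8.63 to 10.15 over 11 alternative settings), Nrxn2 2.79-fold (log2 1.48, SE 0.19, adjusted p = 0.000113) and Nlgn3 1.73-fold (log2 0.79, SE 0.19, adjusted p = 0.0115). Nlgn1 was 4.36-fold higher in the excitatory neuron-like cells (log2 −2.12, SE 0.26, adjusted p = 8.96e-05). Nlgn2 did not pass (log2 0.16, SE 0.28, adjusted p = 0.752). The neurexins and Nlgn1 thus lay on opposite sides of this comparison in both libraries.

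Against the progenitors the MGE interneuron-like cells differed in all 5 genes, in a comparison where much of the transcriptome did. Of all genes 50.6% passed against RGC-like cells (24.9% higher and 25.7% lower) and 41.8% against IPC-like cells (20.4% higher and 21.4% lower). Of the 5 genes 4 were higher and 1 lower in both. Nrxn3 was 209-fold higher than in RGC-like cells (log2 7.71, SE 0.82, adjusted p = 6.94e-06), with log2 9.58 in replicate 2 and 6.99 in replicate 4 taken alone and 7.51 to 9.32 over the settings. It was 205-fold higher than in IPC-like cells (log2 7.68, SE 0.82, adjusted p = 1.08e-05). Nrxn2 exceeded both progenitors, by 16.7-fold and 19.7-fold (adjusted p = 5.11e-08 and 1.4e-07), the latter a log2 of 4.3 that ran from 3.4 to 4.34 over the settings. Nlgn1 was the exception in direction, 2.79-fold higher in RGC-like cells (log2 −1.48, SE 0.26, adjusted p = 0.000342) and 1.84-fold higher in IPC-like cells (log2 −0.88, SE 0.25, adjusted p = 0.0131), where 3 of 11 alternative settings lost the call. CGE interneuron-like cells, which were not tested, had 677 CPM (6 cells) and 2828 CPM (32 cells) of Nlgn1. RGC-like cells had 1312 and 1147 CPM and IPC-like cells 774 and 764 CPM. Nlgn2 was 2.74-fold and 3.51-fold higher in the MGE interneuron-like cells than in RGC-like and IPC-like cells (adjusted p = 0.000962 and 0.000441), and Nlgn3 2.36-fold and 22.9-fold higher (adjusted p = 0.000183 and 2.89e-07). The last, a log2 of 4.51, ran from 2.76 to 4.57.

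Within the excitatory lineage, Nlgn3 was the only one of the 5 genes called between the progenitor classes. Of all genes 23.4% passed (12.6% higher and 10.8% lower in RGC-like cells, 1622 and 1388 genes, which became 2423 and 1228 when every gene counted at least once was tested) between RGC-like and IPC-like cells, and Nlgn3 was 9.68-fold higher in RGC-like cells (log2 3.27, SE 0.26, adjusted p = 5.14e-06). The call held in all 11 alternative settings, but the log2 value ran from 1.5 (at least 500 genes per cell) to 3.36. Nlgn1 (log2 0.6, SE 0.25, adjusted p = 0.102), Nlgn2 (0.36, SE 0.28, adjusted p = 0.415), Nrxn2 (0.24, SE 0.21, adjusted p = 0.475) and Nrxn3 (−0.03, SE 0.62, adjusted p = 0.989) did not pass. The Nrxn3 difference had opposite signs in the libraries, −1.9 in replicate 2 and 0.68 in replicate 4. Of the 11 alternative settings, 3 called Nlgn1 (adjusted p from 0.00824), 1 called Nrxn2 (log2 −0.74, adjusted p = 0.0276, with at least 500 genes per cell) and 1 called Nrxn3 (log2 −1.39, adjusted p = 0.000493, with at most 5% mitochondrial UMIs).

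Excitatory neuron-like cells exceeded RGC-like cells in 4 of the 5 genes, where 51.4% of all genes passed, 27.2% higher and 24.2% lower in the neurons. The balance of these turned with the scaling, from 3505 higher and 3116 lower to 3093 and 3529 with DESeq2 size factors and 3297 and 3798 by the DESeq2 Wald test, which lowered the median of all genes from 0.05 to −0.05. It turned with the cells and genes kept too, to 3202 and 3426 with at most 5% mitochondrial UMIs. With every gene counted at least once it was 3416 and 4458. Nrxn2 was 6-fold higher (log2 2.58, SE 0.2, adjusted p = 3.26e-07) and Nlgn2 2.45-fold (log2 1.3, SE 0.25, adjusted p = 0.00076). Nlgn1 (1.56-fold, adjusted p = 0.0456) and Nlgn3 (1.37-fold, adjusted p = 0.0422) passed narrowly, and 6 and 4 of the 11 alternative settings lost these calls. Nrxn3 was not called (log2 −0.97, SE 0.62, adjusted p = 0.214), with 0.41 in replicate 2 and −1.36 in replicate 4 alone, but 3 of the 11 settings called it lower in the neurons, with log2 values down to −2.15 and adjusted p down to 6.87e-08. Against IPC-like cells 35.9% of genes passed (20.2% higher and 15.7% lower). Their balance turned from 2604 higher and 2021 lower to 2118 and 2200 with at most 5% mitochondrial UMIs. In the main fit the same 4 genes were higher in the neurons. Nlgn3 was 13.2-fold higher (log2 3.73, SE 0.26, adjusted p = 9.31e-07; 2.06 to 3.9 over the settings), Nrxn2 7.06-fold (log2 2.82, adjusted p = 1.26e-06; 2.07 to 2.96), Nlgn2 3.14-fold (adjusted p = 0.000442) and Nlgn1 2.37-fold (adjusted p = 0.00174, lost in 2 of 11 settings). Nrxn3 was lower by 1 on the log2 scale (SE 0.63, adjusted p = 0.246) and not called, whereas 4 of the 11 settings called it, with log2 values down to −2.21 and adjusted p down to 9.1e-07.

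**Figure D3:**
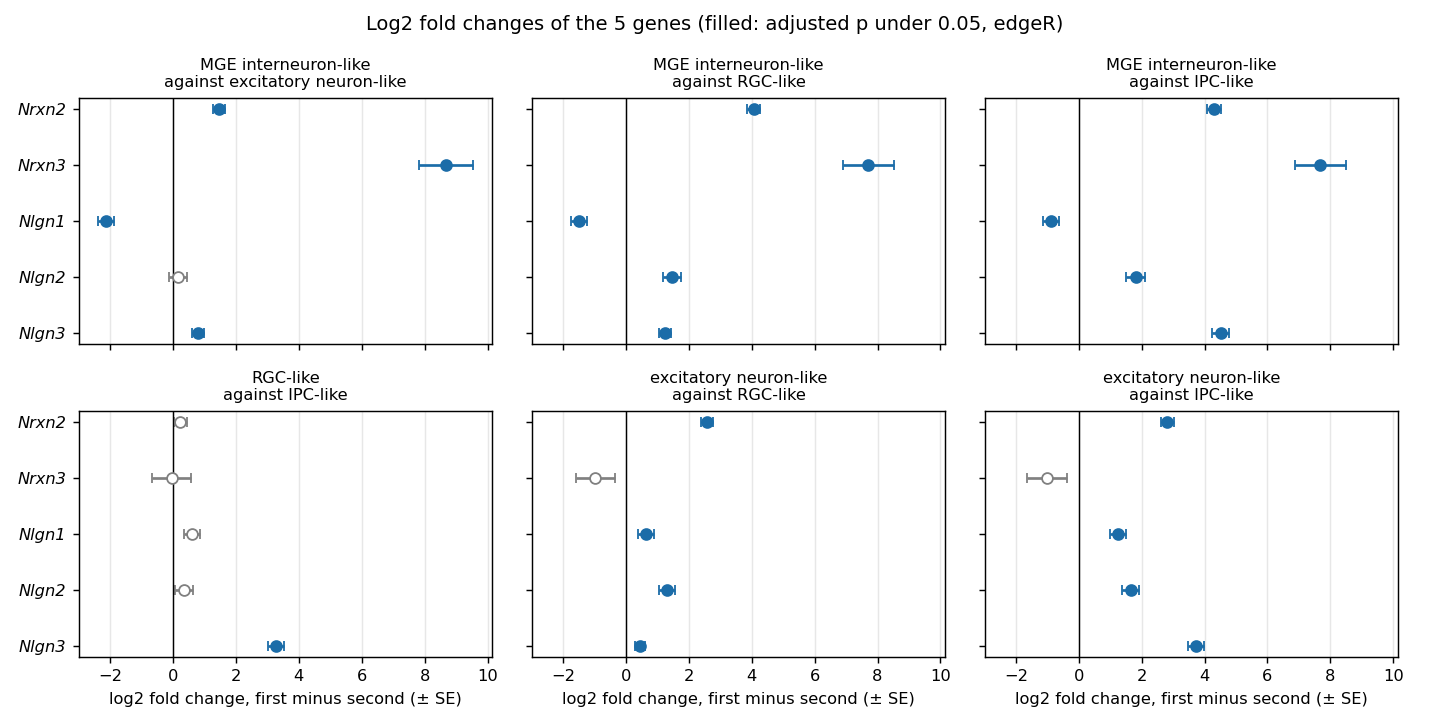
Log2 fold changes of the 5 genes, first class minus second, with bars of ± 1 SE, in the 6 comparisons (filled points, adjusted p under 0.05 in the edgeR fit over all genes; open grey points, not called). Nlgn1 is the only gene left of 0 in all 3 comparisons of MGE interneuron-like cells, and Nlgn3 is the only filled point between RGC-like and IPC-like cells.

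Clusters within the classes showed further spread, which is given as a description without a test. Among excitatory neuron-like cells Nlgn1 ranged from 565 and 576 CPM in cluster 2, led by Unc5d and Neurod1, and 518 and 667 CPM in cluster 11, led by Cntn2, to 3179 and 2993 CPM in cluster 13 (Lrfn5, Rgs6) and 3969 and 4461 CPM in cluster 15, led by Hs3st4, a gene of deep-layer neurons. Both libraries kept these levels apart. Cluster 1, led by Unc5d and Sema3c, differed between the libraries, at 594 CPM in replicate 2 and 1558 CPM in replicate 4. Nlgn3 ran from 4.5 and 7.35 CPM in cluster 4, which still held Eomes and Neurog2 among its leading genes, through 12.2 and 14.6 CPM in the Eomes-led cluster 20 and 16.0 and 16.1 CPM in cluster 2, to 40.0 and 37.9 CPM in cluster 13 and 43.3 and 40.9 CPM in cluster 15. Nrxn2 was at 31.5 and 36.3 CPM in cluster 4, 79.6 and 48.8 CPM in cluster 20, 72.2 and 70.6 CPM in cluster 2, 114 and 112 CPM in cluster 13, and 155 and 171 CPM in cluster 10, led by Tafa1 and Slit3. Nlgn2 varied less, from 29.2 and 29.7 CPM in cluster 20 to 53.8 and 51.9 CPM in cluster 13. Nlgn3 was thus lowest in clusters 4 and 20, which kept IPC genes, whereas Nrxn2 was lowest in cluster 4. Nlgn1 had its lowest means in clusters 2 and 11, with cluster 4 close to them at 661 and 673 CPM.

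Among progenitors, Nlgn1 set cluster 6 apart from the other RGC-like clusters. It held 252 and 174 CPM there, against 1273 and 949.6 CPM in cluster 7, 1476 and 1202 CPM in the dividing cluster 8 and 1720.4 and 1996 CPM in cluster 9. Cluster 6 was led by Apoe and Cdc20 and had the highest median ribosomal share (15%) and the lowest median depth (16553 UMIs) of the 4. Its Nlgn3 level, 18.6 and 16.3 CPM, was close to the 20.4 to 26.1 CPM of the others. Of the IPC-like clusters, cluster 0, led by Eomes, held 932 and 969.9 CPM of Nlgn1 and the dividing cluster 17 held 373 and 535 CPM. The Nrxn3 UMIs of IPC-like cells lay mainly in cluster 0 (139 and 151 CPM, against 24.6 and 80.7 CPM in cluster 17), and Nlgn3 was low in both, at 2.84 and 0.495 CPM and at 2.05 and 3.84 CPM.

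**Figure D4:**
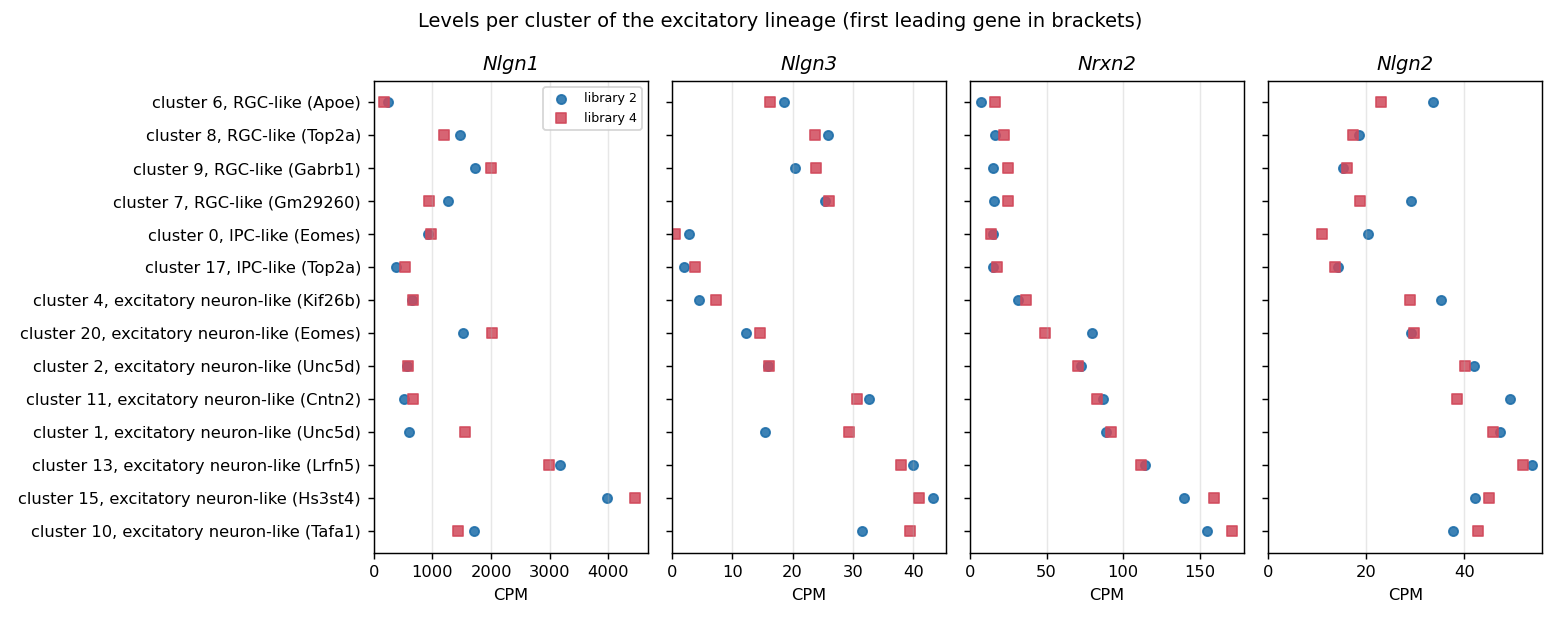
Levels (CPM, axes from 0) of Nlgn1, Nlgn3, Nrxn2 and Nlgn2 in the clusters of the excitatory lineage, ordered within each class by the Nrxn2 level (circles, replicate 2; squares, replicate 4). Nlgn3 is near 0 in both IPC-like clusters and climbs to 43.3 and 40.9 CPM in cluster 15, where Nlgn1 reaches 3969 and 4461 CPM.

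Within the MGE interneuron-like class, cells with at least 1 UMI of Sst, the neuropeptide that names the studied interneurons, were compared with those without (23 and 27 against 31 and 57 cells). Nlgn1 was at 508 and 561 CPM in the Sst-positive and at 224 and 318 CPM in the Sst-negative cells. In the whole class the 5 highest cells held 55.7% and 46.5% of the Nlgn1 UMIs. The part of depth and of single cells in this difference was not tested. Over 7692 genes, 16 (0.208%) passed the edgeR test, all higher in the Sst-positive cells, 722 had an unadjusted p under 0.05, and none of the 5 genes was called. For Nlgn1 the log2 difference was 0.96 (SE 0.24, unadjusted p = 0.00388, adjusted p = 0.221). With the library as a replicate block 117 genes passed the edgeR test, 87 higher and 30 lower in the Sst-positive cells. Nlgn1 was among them (log2 0.98, adjusted p = 0.0431). Nrxn3 was at 19697 and 17469.7 CPM in Sst-positive and 20467 and 25455 CPM in Sst-negative cells (log2 −0.33, SE 0.2, adjusted p = 0.677). Nrxn2 (log2 −0.08, SE 0.22), Nlgn2 (−0.25, SE 0.34) and Nlgn3 (−0.03, SE 0.31) differed by less than 1 SE. A cell without a Sst UMI may still express Sst. By sub-cluster, Nlgn1 was at 359 and 504 CPM in the Sst-led MGE sub-cluster (36 and 34 cells) and at 347 and 306 CPM in the other, led by Nxph1 (18 and 50 cells).

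Ligand and receptor levels were combined per library into a score for each pair of classes, after the method of the CellChat program used in the study: the trimean of the log level of the ligand in the sender is multiplied by that of the receptor in the receiver and passed through a saturating function, so that the score runs from 0 to 1. No test was applied. Scores grow with the counts of each gene, which depend on gene length and priming, so they are ordered here within a ligand-receptor pair only. Nrxn3-Nlgn1 scored above 0 in both libraries for 32 of 64 pairs of classes. From MGE interneuron-like cells the score was 0.269 and 0.272 to RGC-like, 0.251 and 0.275 to excitatory neuron-like and 0.206 and 0.223 to IPC-like cells, with 0.116 and 0.127 back to MGE interneuron-like cells. The order of RGC-like and excitatory neuron-like receivers differed between the libraries, whereas IPC-like cells were below both in each library. Sst-positive MGE interneuron-like cells alone gave 0.268 and 0.265 to RGC-like cells. With excitatory neuron-like or RGC-like cells as senders the Nrxn3-Nlgn1 score was 0 in both libraries. A trimean is 0 where under 25% of cells hold a UMI, as for Nrxn3 in these classes.

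Nrxn2-Nlgn1 scored above 0 in both libraries for all 64 class pairs, at most 0.0807 (MGE interneuron-like to RGC-like cells, 0.0798 and 0.0815). Among the 8 tested classes, the other pairs also had their highest mean scores from MGE interneuron-like senders. Nrxn3-Nlgn2 reached 0.0609 (MGE interneuron-like to Cajal-Retzius-like) and Nrxn3-Nlgn3 0.0408 (within MGE interneuron-like). Nrxn2-Nlgn2 reached 0.0151 (to Cajal-Retzius-like) and Nrxn2-Nlgn3 0.00999 (within MGE interneuron-like). CGE interneuron-like and striatal projection neuron-like senders had too few cells in replicate 2 for a mean and were not ranked. The Nrxn3 level of CGE interneuron-like cells in replicate 4, 35678 CPM, was above the 22224 CPM of MGE interneuron-like cells. In replicate 4 alone, the CGE interneuron-like cells as receivers of Nrxn3-Nlgn1 from MGE interneuron-like cells had 0.351.

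**Figure D5:**
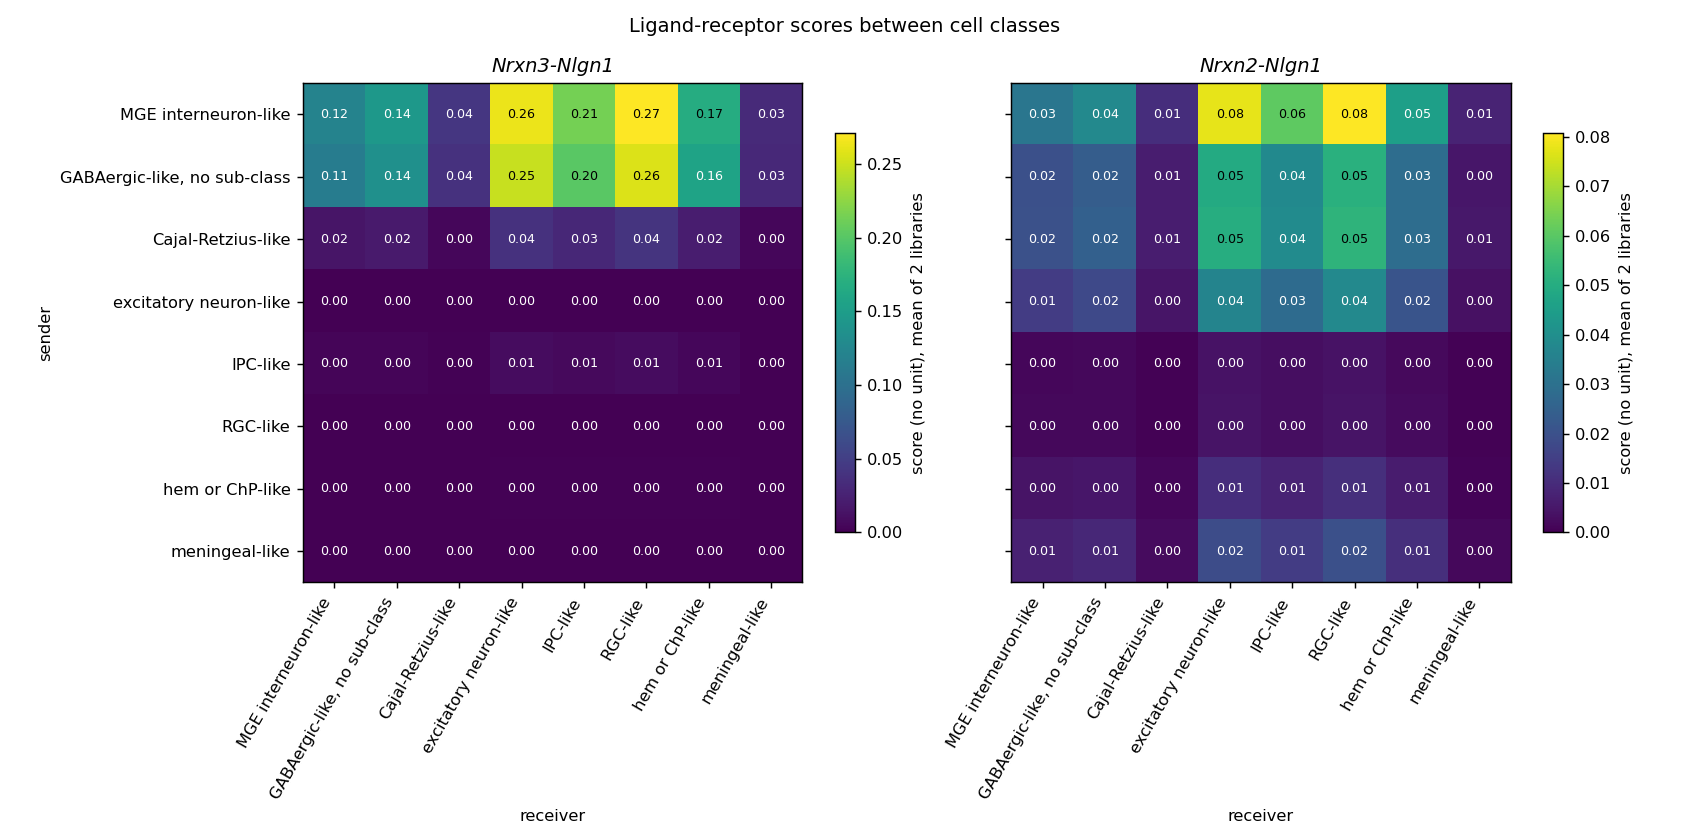
Ligand-receptor scores (no unit, mean of replicates 2 and 4, own colour scale per panel) of Nrxn3-Nlgn1 and Nrxn2-Nlgn1 for each sender class (vertical axis) and receiver class (horizontal axis). Mean scores of Nrxn3-Nlgn1 above 0.05 come only from the 2 GABAergic sender classes and peak at 0.271 toward RGC-like cells, whereas Nrxn2-Nlgn1 also has excitatory neuron-like and Cajal-Retzius-like senders.

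Genes of the same pathway were counted from lists, beside the median over all genes tested. Of 20 other neurexin ligands, 15 could be tested. Between MGE interneuron-like and excitatory neuron-like cells 3 were higher, 4 lower and 8 not called, with a median log2 difference of 0.17 (all genes, −0.08; 7.34% higher and 11.8% lower). Neurexophilins, secreted ligands of alpha neurexins, were split by class. In MGE interneuron-like cells Nxph2 was at 340.3 ± 54.7 CPM, against 0.102 ± 0.145 CPM in excitatory neuron-like cells (SD, n = 2, also below). Nxph3 was at 12.5 ± 1.48 CPM in excitatory neuron-like cells and had no UMI in MGE interneuron-like cells, which allows up to 2.41 and 2.64 CPM. Nxph1 was at 7184 ± 286 CPM in MGE interneuron-like and 21 ± 27.6 CPM in RGC-like cells (log2 8.59, SE 1.53, adjusted p = 0.000574), where the SD exceeded the mean. Of the same 15 ligands 8 were higher and none lower against RGC-like cells (median log2 1.67, all genes −0.04), where 24.9% of all genes were higher and 25.7% lower. Against IPC-like cells 9 were higher and 2 lower (median 1.44, all genes −0.02), with 20.4% and 21.4% of all genes. Igsf21, a ligand at inhibitory synapses, was higher in IPC-like (118 ± 28.8 CPM) than in RGC-like cells (2.92 ± 0.0671 CPM; log2 −5.39, SE 0.28, adjusted p = 4.2e-07), in a comparison where 1 ligand (Adgrl3) was higher in RGC-like cells, 2 were lower and 12 not called, beside 12.6% and 10.8% of all genes higher and lower.

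Mdga1 and Mdga2 encode membrane proteins that bind neuroligins and block neurexin access. Mdga1 was lower in MGE interneuron-like cells (1.68 ± 0.108 CPM) than in IPC-like cells (159 ± 9.05 CPM; log2 −6.42, SE 0.52, adjusted p = 1.41e-06), with 91 ± 8.5 CPM in excitatory neuron-like and 25.8 ± 0.298 CPM in RGC-like cells. Between the progenitors Mdga1 was higher in IPC-like cells (adjusted p = 3.72e-05) and Mdga2 in RGC-like cells, with 171 ± 10.5 CPM against 18.4 ± 11.2 CPM (log2 3.13, SE 0.61, adjusted p = 0.00254), and was at 467 ± 30.4 CPM in excitatory neuron-like cells. Grid1, a receptor for neurexin-bound cerebellins, was higher in MGE interneuron-like cells (288 ± 61.9 CPM) than in excitatory neuron-like cells (54.6 ± 2.32 CPM; log2 2.36, SE 0.63, adjusted p = 0.0194).

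Proteins that bind neurexins and neuroligins inside the cell were counted likewise. Of 10 cytoplasmic partners of neurexins tested, 2 were higher in MGE interneuron-like than in excitatory neuron-like cells and 8 not called (median log2 0.11, all genes −0.08), beside 7.34% of all genes higher. Against RGC-like cells 8 were higher and 1 lower (median 1.8, all genes −0.04), where 24.9% and 25.7% of all genes were. Syt1, the calcium sensor of synaptic vesicles, was at 2315 ± 131 CPM in the interneurons, against 15.9 ± 0.0759 CPM in IPC-like, 436 ± 8.36 CPM in excitatory neuron-like and 27 ± 18.3 CPM in RGC-like cells, and all 3 differences were called. Of 16 postsynaptic scaffolds 7 were higher and 1 lower in MGE interneuron-like than in excitatory neuron-like cells (median log2 0.74, all genes −0.08), beside 7.34% and 11.8% of all genes. Dlgap2 led these, with 2871 ± 205 CPM against a mean of 62 CPM (log2 5.49, SE 0.73, adjusted p = 0.000173), and Dlg1 was lower (139 ± 8.37 against 301 ± 36.4 CPM). Magi1 was higher in both progenitors, with 2065 ± 17.8 CPM in IPC-like and 1083 ± 54.2 CPM in RGC-like cells against 288 ± 63.3 CPM in excitatory neuron-like cells. Of the 3 neurexin splicing regulators, Khdrbs3 was lower in MGE interneuron-like (59.8 ± 5.04 CPM) than in excitatory neuron-like cells (262 ± 17.3 CPM; log2 −2.17, SE 0.23, adjusted p = 2.3e-05). Khdrbs2 was at 1035 ± 0.421 CPM in excitatory neuron-like, 731 ± 144 CPM in MGE interneuron-like (adjusted p = 0.514 between these), 104 ± 26.1 CPM in IPC-like and 38 ± 5.03 CPM in RGC-like cells. Of 7 sheddases and gamma-secretase subunits, which cut neurexins and neuroligins, 1 (Psenen) was lower in MGE interneuron-like than in excitatory neuron-like cells and 6 were not called, where 11.8% of all genes were lower.

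The genes most like each member were ranked by Pearson's r of log2 levels over the 16 sums of 8 classes. These sums share 2 libraries and a split between neurons and other cells, and the values are descriptions. For Nrxn3 the nearest were Grm4 (r = 0.945), Dlx2 (0.944) and Cdk14 (0.932), and for Nrxn2 Sobp (0.966), Epb41l1 (0.954) and Klhl8 (0.954). For Nlgn1 the likeness was weaker, with 2700033N17Rik (0.871), Mtdh (0.866) and Ptprz1 (0.854). Nlgn2 was nearest to Begain (0.958), Dner (0.942) and Tmem169 (0.942), and Nlgn3 to Irf2bpl (0.955), Slc25a23 (0.937) and Frmd3 (0.912). Among the members, Nrxn2 had r of 0.72 with Nrxn3, 0.77 with Nlgn2 and 0.74 with Nlgn3, whereas Nlgn1 had −0.25 with Nrxn2 and −0.27 with Nrxn3. The members thus fell into 4 genes with positive r among themselves (0.43 to 0.77) and Nlgn1, whose r with the others lay between −0.27 and 0.04.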

How the data were processed

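Single-cell RNA sequencing of 2 WT libraries (10x Genomics 3′ kit, polyA RNA) was analysed. The authors deposited raw UMI counts for each gene and barcode after cell calling, made with Cell Ranger 7.0.0 on mm10 per the submitters' processing notes, without normalization. Whether intronic reads were counted is not stated in the sources used here, and the counts of long genes such as Nrxn3 and Nlgn1 can depend on it.

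Kept barcodes had 1000 or more genes and no more than 10% mitochondrial UMIs. Scrublet (scanpy 1.11.5) marked 14 (1.16%) and 15 (0.761%) doublets, which were left out. Clustering used 2000 variable genes (members, other genes of both families and pathway lists excluded), 30 principal components and 20 neighbours and gave 24 Leiden clusters at resolution 1. The GABAergic ones were split into 8 sub-clusters. Names needed 3 or more raised markers (in 25% or more of cells, and raised by 1 or more on the log2 scale after adding 10 CPM) and were ranked by markers among the 10 leading genes, a scoring revised after the clusters had been seen, so names may differ from the study's. There were 2 unnamed clusters of low UMI counts. RGC-like cluster 7 and the endothelial-like cluster had hemoglobin genes among their leading genes.

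UMIs were summed per library and class (10 or more cells in both). In 1 fit of 16 sums 12872 genes were tested with edgeR 4.0.16 (TMM, quasi-likelihood test, Benjamini-Hochberg adjustment at 0.05), a script tested on simulated data. CPM values are raw sums, whereas fold changes use TMM. Tests against CGE interneuron-like and striatal projection neuron-like cells were not run, since replicate 2 had too few cells. Sums of 1 replicate number come from 1 library, so the numbers pair the sums, and deviations from class means correlated by 0.112 to 0.295 over the 6 pairs of the 4 compared classes. DESeq2 1.42.0 and other settings served as alternatives. Named genes were the members, per comparison and list the called gene with the largest fold change in each direction and 1 sign in both libraries, and the 3 genes most like each member, and a part of these is printed. Members and lists were chosen with earlier results of these data known.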

Additional observations from a re-analysis of the deposited data

Results flagged for a closer look

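Signal was also present in cells that no comparison used, the unnamed clusters, above the limit that a count of 0 allows in both libraries. Unnamed cluster 12 (39 and 41 cells with median depths of 5668 and 4255 UMIs, led by Creb5 and Gm29260, which also led RGC-like clusters) held Nlgn1 at 1547 and 2074 CPM (mean 1810.5), in 89.7% and 87.8% of cells. In the same cluster Nlgn3 had a mean of 44.1 CPM (12 and 10 UMIs), Nlgn2 24.5 CPM (5 and 7 UMIs) and Nrxn2 22.1 CPM (6 and 5 UMIs). Unnamed cluster 5 (35 and 19 cells, led by Stmn2 and hemoglobin genes) held Nrxn2 at a mean of 49.0 CPM (9 and 4 UMIs) and Nlgn1 at a mean of 38.4 CPM (5 and 4 UMIs).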

How the results depend on the processing

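The members' 30 fold changes were recomputed under 11 alternatives with a test, of which 1, excitatory neuron-like cells without the clusters led by Eomes, was chosen after seeing the data. Of 330 values, 291 kept direction and side of the threshold, 15 lost the call, 11 gained one and 13 changed sign. For the last the cause was not tested, and each main value was uncalled. Between RGC-like and IPC-like cells Nrxn2 was −0.74 (adjusted p = 0.0276) with at least 500 genes per cell, −0.22 with at most 5% mitochondrial UMIs, and −0.35 and −0.11 at Leiden resolutions 0.5 and 2. Nrxn3 there was 0.04 with DESeq2 size factors, 0.04 with the DESeq2 Wald test, 0.07 with every gene counted at least once, and 0.66 and 0.28 at resolutions 0.5 and 2. Nlgn2 was −0.03, −0.01 and −0.03 with 500 genes, 5% mitochondrial UMIs and resolution 0.5, and −0.03 with 5% mitochondrial UMIs between MGE interneuron-like and excitatory neuron-like cells. In the Sst contrast with 3 or more Sst UMIs Nrxn2 was 0.07 and Nlgn3 0.08. Counts of called genes stayed within 1.5 times in the 6 class comparisons and for the neighbours, the library as a replicate block included, which changed no call of a member there. In the Sst contrast, 16 called genes, all higher, became 117 with the replicate block (87 higher and 30 lower). They became 57 when positive cells needed 3 or more Sst UMIs (40 higher and 17 lower) and 47 by the DESeq2 Wald test (37 higher and 10 lower). With every gene counted at least once, 0 of 16705 were called (903 at an unadjusted p under 0.05, edgeR). The Nrxn3-Nlgn1 score from MGE interneuron-like cells became 0.732 (IPC-like), 0.781 (excitatory neuron-like) and 0.788 (RGC-like) with a Hill constant of 0.05, and 0.258 (RGC-like) with the arithmetic mean. Nrxn3 in RGC-like cells was the level that rested most on 1 library, and with at least 500 genes per cell or doublets kept Nlgn1 in meningeal-like cells was 4.69 and 5.68 times its value, in cells clustered and named anew.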
